A study of Mus musculus with 9 samples.

Results

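The FGF genes described here are the fibroblast growth factor (FGF) ligands, their receptors and the genes of their feedback circuit. They were selected by symbol alone, as the table rows named Fgf followed by a number plus Fgfr1 to Fgfr4, Spry1, Spry2, Spry4, Spred1 to Spred3, Dusp6, Etv4 and Etv5. The selection gave 35 genes of 56481 symbols, with 22 ligands, 4 receptors and 9 feedback and response genes, and Spry3 was not analysed here. Counted by symbol, the 22 ligands include Fgf11 to Fgf14, which stay inside the cell and do not act on FGF receptors. Transcripts were counted by RNA sequencing in 9 mouse libraries in 3 groups of 3. Cells labelled induced corneal endothelial cells (iCEC) were derived from neural crest cells by SB431542, which blocks the TGF-β type I receptor kinase. The inhibitor was at 5 µM in differentiation medium that held 5% KSR, and the colonies were characterised on day 12. Cells labelled primary corneal endothelial cells (pCEC) were kept in medium with 10% FBS, and the age of the donor animals was not given in the sources used here. Primary neural crest cells (pNCC) came from E13.5 mouse embryos and were kept in the same serum medium, so that medium and inhibitor differ together between iCEC and both other groups. The labels name polyA RNA for every library except pCEC 2 and pCEC 3, which are labelled total RNA. Whether the replicates are separate animals or cultures is not given, so the p-values cover the spread among these libraries alone, and that spread may be technical.

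FGF ligands bind receptor tyrosine kinases together with heparan sulfate, and the receptors signal through the adaptor Frs2 and the RAS-ERK cascade. ERK signalling turns on the ETS factors Etv4 and Etv5 and the inhibitors Spry, Spred and Dusp6, which feed back on the same cascade, although other receptor tyrosine kinases drive these genes as well. Fgfr1 and Fgfr2 are spliced into forms with different ligand choice, an epithelial form that answers mesenchymal ligands such as Fgf7 and Fgf10 and a mesenchymal form. In the eye, Fgf10 and Fgfr2 are known for their part in lacrimal gland budding, and FGF signals act on the lens and the corneal epithelium.

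The deepest library was iCEC 1 with 47967113 counts and the shallowest pCEC 3 with 27389292, so that 3 counts, taken as the floor of detection in a library, were worth 0.0625 to 0.11 CPM, where CPM is the count of a gene scaled to the total of its library. Libraries labelled pCEC carried surface epithelium genes at a summed 42200 to 55000 CPM over 11 markers, among them the corneal keratin Krt12 at 8974 to 11140 CPM, while iCEC held 17800 to 25900 CPM and pNCC 96.5 to 160 CPM. The summed level of 12 corneal endothelium markers was 811 to 877 CPM in iCEC, 1020 to 1270 CPM in pCEC and 399 to 684 CPM in pNCC. These markers did not move together. In iCEC against pNCC, edgeR called 5 higher and 3 lower and 4 did not pass, where 31.3% of all genes were called. Tjp1, Foxc1 and Atp1b1, the largest members of the iCEC sum, averaged 345, 188.5 and 129.5 CPM there. The 3 lower were Aqp1, Cdh2 and Col8a2. Aqp1 averaged 0.304 CPM in iCEC, 266.5 CPM in pCEC and 104.8 CPM in pNCC. The endothelial collagen Col8a2 was at 0 to 0.119 CPM in iCEC, 37.6 to 152.8 CPM in pCEC and 4.93 to 18.4 CPM in pNCC. The 10 neural crest markers summed to 268 to 793 CPM in iCEC, 224 to 318 CPM in pCEC and 210 to 410 CPM in pNCC and did not move together. Sox9 averaged 332 CPM in iCEC and 36.5 CPM in pNCC, while Sox10 was at most 0.0545 CPM in iCEC and 16.9 to 52.1 CPM in pNCC, and Foxd3 was at 0 in iCEC and at 8.45 to 31.0 CPM in pNCC. The 10 fibroblast and keratocyte markers summed to 29.1 to 153 CPM in iCEC, 1040 to 9700 CPM in pCEC and 25500 to 35400 CPM in pNCC. In such bulk samples, fewer cells of a type and less RNA per cell cannot be told apart.

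The receptor genes changed places between the groups. Fgfr1 was by far the most abundant receptor transcript in pNCC, Fgfr2 led in iCEC 1 and iCEC 2, and Fgfr2 and Fgfr3 stood side by side in pCEC. To compare genes, CPM was divided by the length of their annotated exons. On that scale Fgfr1 made up 95.9 ± 1.0% (SD, n = 3) of the summed receptor level in pNCC, where Fgfr2 held 3.57 ± 1.07%. In pCEC the shares of the summed level were 6.37 ± 2.8% for Fgfr1, 42.9 ± 6.54% for Fgfr2 and 49.9 ± 6.23% for Fgfr3, and without scaling to length Fgfr2 came first there, at 51.0% against 41.3% for Fgfr3. In iCEC the Fgfr2 share of the summed level was 88.8% in iCEC 1, 86.0% in iCEC 2 and 25.6% in iCEC 3. The third library stood apart by Fgfr1, which held 69.0% of the receptor level there and 4.0% and 10.3% in iCEC 1 and iCEC 2. The summed receptor level was 8.04, 8.51 and 34.8 CPM per kb in iCEC 1, 2 and 3, 33.0 to 39.9 CPM per kb in pCEC and 58.1 to 67.4 CPM per kb in pNCC, so that iCEC 1 and iCEC 2 carried the least receptor transcript of all libraries.

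**Figure D1:**
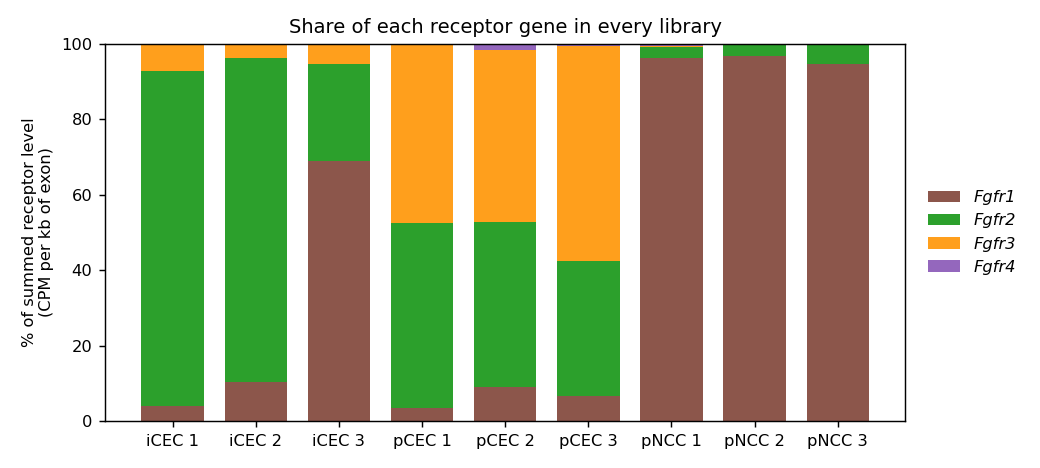
Stacked bars give the percentage of the summed receptor level, in CPM per kb of exon, held by each receptor gene in each of the 9 libraries. Fgfr1 fills 94.8 to 96.7% of the pNCC bars, Fgfr2 88.8% and 86.0% of iCEC 1 and iCEC 2, and Fgfr1 69.0% of iCEC 3, while Fgfr2 and Fgfr3 together fill most of the pCEC bars.

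Fgfr2, the receptor that epithelia use to answer mesenchymal FGFs (chromosome 7, 130162451 to 133123350, minus strand, mm10), was at 73.7, 75.6 and 92.1 CPM in iCEC, 166.8, 167.7 and 148 CPM in pCEC, and 18.6, 19.97 and 28.5 CPM in pNCC. The 3 groups did not overlap. It was 3.58-fold higher in iCEC than in pNCC (log2 fold change 1.84 ± 0.22, SE, adjusted p = 0.00274 by edgeR), 7.81-fold higher in pCEC than in pNCC (2.97 ± 0.20, adjusted p = 2.21e-05) and 2.18-fold lower in iCEC than in pCEC (-1.13 ± 0.15, adjusted p = 0.00616). The SE was recovered from the fold change and its F statistic, so it restates the test. With the polyA library of pCEC alone the last value was -1.07. In every fit with that library alone, pCEC is 1 sample that is assumed to vary like the other group, and between iCEC and pCEC such a fit called 0 of 18806 genes, so it decides no call there. Exons of Fgfr2 share 314 bases, or 3.0%, with Ctbp2 on the same strand, and Ctbp2 had a mean of 56.1 CPM in iCEC, 40.3 CPM in pCEC and 57.5 CPM in pNCC. The surface epithelium markers summed to at least 17800 CPM in every iCEC and pCEC library, and to at most 160 CPM in pNCC. They did not move with Fgfr2 and Fgfr3 as a whole list. In iCEC, Krt12 was at most 0.0298 CPM and Pax6 at most 0.708 CPM, where Pax6 was at least 724 CPM in pCEC. Between iCEC and pCEC, 4 of the markers were lower in iCEC and 6 did not pass. Epcam was higher in iCEC (log2 fold change 1.98, adjusted p = 0.046 by edgeR). The part of these markers in the receptor levels was not tested.

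Fgfr1 (chromosome 8, 25513654 to 25575718, plus strand, mm10), the receptor of most mesenchymal cells, was at 3.21, 8.61 and 237 CPM in iCEC, 11.5, 33.4 and 25.8 CPM in pCEC and 563, 644 and 544 CPM in pNCC. Every library of iCEC and pCEC lay below every library of pNCC, and iCEC 3 lay far above the other iCEC libraries and above pCEC. Fgfr1 fell 22.4-fold in pCEC (log2 fold change -4.49 ± 0.42 with its SE, adjusted p = 0.000111 by edgeR), and the log2 fold change was -5.63 with the polyA library of pCEC alone. In iCEC the difference from pNCC did not pass (-2.98 ± 1.46, adjusted p = 0.175), while without iCEC 3 it did (-6.54, adjusted p = 0.000646). Against pCEC the fitted value in iCEC was 1.57 ± 1.44 (adjusted p = 0.485), and it was -2.02 without iCEC 3 (adjusted p = 0.0672). Beside this, the summed fibroblast and keratocyte markers were at 153 CPM in iCEC 3, against 29.1 CPM in iCEC 1 and 36.5 CPM in iCEC 2, but Dcn alone made up 145.9 CPM of that sum, while Col1a1 was at 0.119 CPM in iCEC 3, against 11.9 and 13.05 CPM, and Col1a2, Twist1 and Pdgfra were also lowest there. The summed neural crest markers were at 793 CPM in iCEC 3, against 268 and 409 CPM, of which Sox9 made up 555.1 CPM. Tfap2b, at 0, 0 and 54.7 CPM in iCEC 1, 2 and 3, and Snai2, at 31.0, 35.0 and 98.1 CPM, were also highest in iCEC 3, as was Msx2. Pax3, Ngfr and Msx1 were lowest there. The lists thus did not move as a whole with Fgfr1, and the part of single genes in its level was not tested.

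Fgfr3 (chromosome 5, 33721674 to 33737068, plus strand, mm10), a receptor known as a brake on growth of cartilage and also made by stratified epithelia, was at 4.13, 2.15 and 13.2 CPM in iCEC, 111.2, 121 and 162.9 CPM in pCEC and 0.466, 1.23 and 1.40 CPM in pNCC. The groups did not overlap, and pCEC stood far above the rest. Fgfr3 was 138.5-fold higher in pCEC than in pNCC (log2 fold change 7.11 ± 0.43, SE, adjusted p = 1.6e-05 by edgeR) and 23.2-fold lower in iCEC than in pCEC (-4.53 ± 0.68, adjusted p = 0.00818). The rise of Fgfr3 in iCEC over pNCC, 2.55 ± 0.77 on the log2 scale, passed narrowly (adjusted p = 0.0491). It was lost on leaving out pNCC 1 (adjusted p = 0.149) or else pNCC 2 (0.148), pNCC 3 (0.117), iCEC 1 (0.0729) or iCEC 3 (0.0758), with DESeq2 size factors (0.053) and without a filter on low counts (0.0525). The log2 fold change was 1.65 without iCEC 3. Without iCEC 3 that between iCEC and pCEC was -5.43. Exons of Fgfr3 share 13.9% of their bases with a transcript on the opposite strand, G630022F23Rik, which had at most 0.361 CPM in any library, and the pseudogene Fgfr3-ps was at 0 counts throughout.

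Fgfr4, the receptor known for its part in liver bile acid control, was scarce, at 0, 0.0545 and 0.119 CPM in iCEC, 0.359, 2.25 and 0.730 CPM in pCEC and 1.06, 0.352 and 0.228 CPM in pNCC. It was lower in iCEC than in pCEC (log2 fold change -4.43 ± 1.24 with its SE, adjusted p = 0.0492 by edgeR), on 6 counts in iCEC against 113 in pCEC. That call was lost without iCEC 1 (-3.81, adjusted p = 0.0894), iCEC 2 (-4.46, 0.105), pCEC 1 (-4.86, 0.078), pCEC 2 (-3.39, 0.178) or pCEC 3 (-4.63, 0.12). The value was -5.33 without iCEC 3, which leaves 2 counts in iCEC, and -2.65 with the polyA library of pCEC alone. The difference between pCEC and pNCC did not pass (1.18 ± 0.84, adjusted p = 0.256), and Fgfr4 was too low to be tested between iCEC and pNCC.

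**Figure D2:**
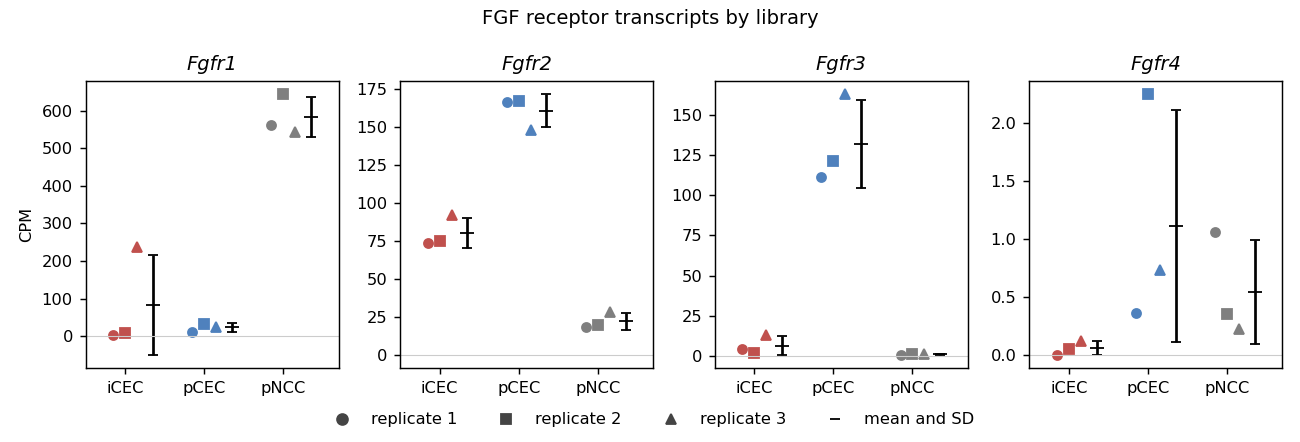
Points give CPM (linear axes, a different range in each panel) of the 4 receptor genes in each library of iCEC, pCEC and pNCC, with the mean and SD of 3 libraries beside them. Fgfr1 is highest in pNCC at 544 to 644 CPM with iCEC 3 alone at 237 CPM, Fgfr2 lies in 3 ranges that do not overlap, and Fgfr3 stays at or below 13.2 CPM outside pCEC.

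Splicing of the receptors could not be read from counts per gene, but the regulators that choose the forms were measured. Of 8 splicing regulators, 2 were higher and 1 lower in iCEC than in pNCC and 3 were higher and 1 lower in pCEC than in pNCC, where 31.3% and 62.5% of all genes tested were called. Esrp1, which drives the epithelial forms of the receptors, averaged 196 ± 25.5 CPM in iCEC, 426 ± 1.66 CPM in pCEC and 0.791 ± 0.228 CPM in pNCC (SD, n = 3 each). Its partner Esrp2 averaged 76.5 ± 9.04 CPM in iCEC, 251 ± 14.5 CPM in pCEC and 1.69 ± 0.867 CPM in pNCC. Both were called against pNCC in iCEC (adjusted p = 0.000268 and 0.0011 by edgeR) and in pCEC (1.06e-06 and 1.3e-05), and both were lower in iCEC than in pCEC (0.00989 and 0.00286). Rbfox2, a splicing factor of mesenchymal and other cells, fell in iCEC to 123 ± 29.5 CPM and in pCEC to 95.6 ± 7.05 CPM, against 338 ± 20.4 CPM in pNCC (adjusted p = 0.00201 and 1.85e-05).

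The stretches before the starts of the receptors that were higher in iCEC and pCEC are shown so that their makeup can be compared. Beside them stand those of Fgf7 and Fgf5, the ligands with the largest fitted falls in both groups. RefSeq gives promoters for 26 of the 35 genes on build GRCm38.p6. Each stretch is the 250 bases before a RefSeq start, read 5′ to 3′ on the strand of the gene, with every CG dinucleotide in capitals, for Fgfr2 at chr7:130266809-130267058 (minus strand), Fgfr3 at chr5:33721474-33721723 (plus strand, the first of its listed starts), Fgf7 at chr2:126034408-126034657 (plus strand) and Fgf5 at chr5:98253934-98254183 (plus strand).
Fgfr2: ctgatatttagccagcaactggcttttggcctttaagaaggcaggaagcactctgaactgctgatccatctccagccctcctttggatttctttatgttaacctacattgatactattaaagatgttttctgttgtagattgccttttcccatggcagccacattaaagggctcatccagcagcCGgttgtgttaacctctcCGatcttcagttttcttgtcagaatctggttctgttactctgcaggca
Fgfr3: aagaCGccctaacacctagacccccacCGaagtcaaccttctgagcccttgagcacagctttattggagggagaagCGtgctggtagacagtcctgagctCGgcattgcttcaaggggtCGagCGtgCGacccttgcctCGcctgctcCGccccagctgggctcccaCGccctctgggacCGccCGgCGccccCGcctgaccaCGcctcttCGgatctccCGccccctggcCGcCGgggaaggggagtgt
Fgf7: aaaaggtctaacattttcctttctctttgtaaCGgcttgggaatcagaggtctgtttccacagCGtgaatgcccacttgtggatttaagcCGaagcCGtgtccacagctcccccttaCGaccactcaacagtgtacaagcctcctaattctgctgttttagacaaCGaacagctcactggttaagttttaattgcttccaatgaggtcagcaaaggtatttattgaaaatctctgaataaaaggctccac
Fgf5: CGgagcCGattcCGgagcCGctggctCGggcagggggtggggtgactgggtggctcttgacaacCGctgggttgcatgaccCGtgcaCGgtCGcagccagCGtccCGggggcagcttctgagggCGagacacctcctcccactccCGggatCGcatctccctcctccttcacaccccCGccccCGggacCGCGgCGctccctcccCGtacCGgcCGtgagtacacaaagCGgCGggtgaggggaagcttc
The stretches shown differed in makeup among the receptors and among the ligands. The stretch of Fgfr2 held 2 CG dinucleotides and 44.0% G and C, and that of Fgfr3 held 19 and 66.8%. That of Fgf7 held 6 and 43.6% and that of Fgf5 24 and 70.8%, where the median over 32851 such stretches was 6 and 52.4%. Fgf2, Fgf9 and Fgf13 were also called lower in both groups and are not shown. The stretch of Fgf2 held 20 and 62.4% and that of Fgf9 11 and 44.8%, while Fgf13 has several listed starts. The ETS core CCGGAA, searched on both strands and itself holding a CG, occurred once in the stretch of Fgf5 and in 12.0% of all stretches, and the AP-1 site TGANTCA occurred in none of the 4 shown and in 6.7% of all.

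Among the genes counted as ligands, falls outnumbered rises in both iCEC and pCEC against pNCC. The tallies include Fgf11 to Fgf14, which do not act on FGF receptors. Of these, Fgf13 and Fgf14 were among the falls in iCEC, and Fgf13 among those in pCEC. Fgf11 passed in neither, and Fgf14 did not pass in pCEC. Of 22 ligand genes, Fgf3, Fgf4, Fgf6 and Fgf20 had no count in any library, Fgf8 and Fgf16 had under 10 counts in all, and Fgf12, Fgf15, Fgf17 and Fgf23 were also too low to be tested. Of 11 ligands tested between iCEC and pNCC, 1 rose, 7 fell and 3 did not pass, the median log2 fold change being -3.99, against 0.05 over all genes tested, of which 16.1% were called upward and 15.1% downward. Of 12 tested between pCEC and pNCC, 1 rose, 6 fell and 5 did not pass (median -1.71, against -0.01 over all genes tested, of which 30.3% were called upward and 32.2% downward). The filter on low counts can be met through a single group. With 4, 5 and 8 counts in iCEC, Fgf14, Fgf18 and Fgf5 entered through pNCC alone, so that only a fall was open to them. In pCEC the same held for Fgf13, with 8 counts, and Fgf5, with 0. The ligand tallies and medians against pNCC therefore lean downward in part through the filter. Of 7 tested between iCEC and pCEC, none was called by edgeR, Fgf1 and Fgf9 were called by the DESeq2 Wald test (adjusted p = 0.00119 and 0.0408), and Fgf1 and Fgf9 also had an unadjusted p under 0.05 by edgeR, where 10.5% of all genes were called upward and 9.92% downward. The summed fibroblast and keratocyte markers were at most 9700 CPM outside pNCC and at least 25500 CPM in it. Most of the pNCC sum was Col1a1 and Col1a2, with means of 14230 and 11220 CPM. In pCEC against pNCC, 7 of the 10 markers were lower and Kera was higher. Lum (log2 fold change 0.36) and Dcn (-0.59) did not pass there (adjusted p = 0.678 and 0.303 by edgeR). The part of these markers in the ligand levels was not tested. The ranks of the ligands on the scale of CPM per kb were led by Fgf1 in iCEC at 12.9 ± 9.43, by Fgf10 in pCEC at 1.16 ± 0.904 and by Fgf7 in pNCC at 64.4 ± 18.1 (SD, n = 3 each). In pCEC the next ranks, Fgf1 at 0.912 ± 0.756 and Fgf18 at 0.820 ± 0.721 CPM per kb, did not differ from Fgf10 beyond their spread.

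**Figure D3:**
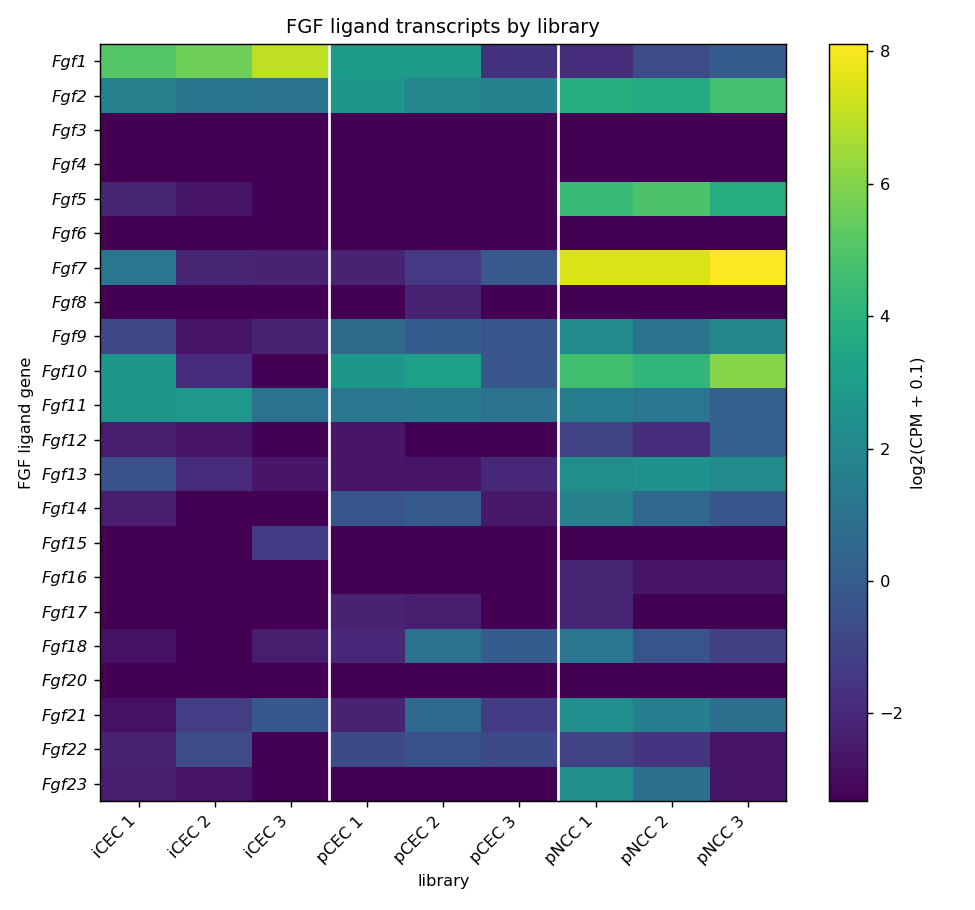
Colour gives log2(CPM + 0.1) of the 22 ligand genes (rows) in the 9 libraries (columns, with white lines between iCEC, pCEC and pNCC). Fgf1 is brightest in iCEC, Fgf7 in pNCC at 174 to 277 CPM, and Fgf3, Fgf4, Fgf6 and Fgf20 are dark throughout.

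The ligands of the Fgf7 subfamily act from mesenchyme on the epithelial form of Fgfr2. Fgf7 itself (chromosome 2, 126034658 to 126091185, plus strand, mm10) was at 2.13, 0.136 and 0.119 CPM in iCEC, 0.120, 0.277 and 0.803 CPM in pCEC and 176, 174 and 277 CPM in pNCC. It was 249-fold lower in iCEC (log2 fold change -7.96 ± 1.31, SE, adjusted p = 0.00721 by edgeR) and 498-fold lower in pCEC (-8.96 ± 0.61, adjusted p = 2.63e-05). These were the groups in which Fgfr2 was higher. Without iCEC 1 the value in iCEC was -10.65. In pCEC it was -9.88 without pCEC 3 and -10.70 with the polyA library alone.

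Fgf10, the ligand of gland and limb budding, was at 6.46, 0.163 and 0 CPM in iCEC, 6.34, 8.90 and 0.767 CPM in pCEC and 25.1, 18.4 and 66.4 CPM in pNCC. All libraries of iCEC and pCEC lay below those of pNCC, with a wide spread within each group. Fgf10 fell 6.40-fold in pCEC (log2 fold change -2.68 ± 0.84 with its SE, adjusted p = 0.0273 by edgeR), and did not pass in iCEC (-4.01 ± 1.81, adjusted p = 0.145). The call in pCEC was lost without pNCC 3 (-1.89, adjusted p = 0.0738) or pCEC 1 (0.0632), without a filter on low counts (0.138), with all 9 libraries in one fit (0.206) and with the polyA library of pCEC alone (0.0806), and its value was -3.27 without pCEC 2. In iCEC the difference passed without iCEC 1 (-8.68, adjusted p = 0.0148) and by the DESeq2 Wald test (-4.08, adjusted p = 0.0308). Fgf22, a ligand of the same subfamily known from synapses and skin, stood at up to 0.518 CPM in iCEC, 0.475 to 0.610 CPM in pCEC and 0.0571 to 0.373 CPM in pNCC, and passed neither against pNCC in pCEC (adjusted p = 0.0939) nor between iCEC and pCEC (0.451).

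Fgf1 was the ligand that rose. This ligand binds all FGF receptors and lacks a classical signal for secretion. It was at 34.3, 47.8 and 129.6 CPM in iCEC, 7.30, 7.43 and 0.219 CPM in pCEC and 0.187, 0.528 and 0.914 CPM in pNCC. The iCEC libraries lay above all others, while pCEC 3 lay within the range of pNCC. Fgf1 was 122-fold higher in iCEC than in pNCC (log2 fold change 6.93 ± 0.80, SE, adjusted p = 0.00245 by edgeR), with a value of 6.29 without iCEC 3 and 7.55 without pNCC 3. In pCEC it was 9.69-fold higher than in pNCC (3.28 ± 1.15, adjusted p = 0.0411). That call was lost on leaving out pNCC 1 (adjusted p = 0.117) or else pNCC 2 (0.117), pCEC 1 (0.084) or pCEC 2 (0.0985) and without a filter on low counts (0.138), and the value was 3.90 without pNCC 3. Between iCEC and pCEC the difference of 3.69 ± 1.13 did not pass (adjusted p = 0.065), and it passed by the DESeq2 Wald test (0.00119) and with all 9 libraries in one fit (0.0349).

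Fgf2, the close relative of Fgf1 that keeps many cells growing in culture, went the other way. It was at 3.04, 2.04 and 1.99 CPM in iCEC, 6.55, 3.61 and 3.21 CPM in pCEC and 14.9, 12.8 and 25.5 CPM in pNCC. Neither iCEC nor pCEC overlapped with pNCC. Fgf2 was 7.45-fold lower in iCEC (log2 fold change -2.90 ± 0.42, SE, adjusted p = 0.00484 by edgeR) and 3.69-fold lower in pCEC (-1.88 ± 0.38, adjusted p = 0.00377), the second of which was lost with the polyA library of pCEC alone (-1.41, adjusted p = 0.0719). Its exons share 9.4% of their bases with Nudt6 on the opposite strand, which averaged 1.86 ± 0.79 CPM in iCEC, 1.51 ± 0.491 CPM in pCEC and 1.22 ± 0.168 CPM in pNCC, so reads of the antisense gene did not fall with Fgf2. The strand setting of the counting was not given in the sources used here.

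Fgf5, known as the signal that ends hair growth, was at 0.125, 0.0545 and 0 CPM in iCEC, at 0 in every library of pCEC and at 21.5, 29.9 and 13.4 CPM in pNCC. It thus stayed near or below the floor of detection outside pNCC. Fgf5 fell in iCEC (fitted log2 fold change -8.28 ± 0.93, SE, adjusted p = 0.00231 by edgeR), on 8 counts there with a mean under the floor, and was at least 230-fold lower in pCEC at the floor of 3 counts per library (adjusted p = 8.66e-05). Fgf9, a ligand of mesenchyme and epithelia in lung and eye, was at 0.459, 0.0545 and 0.119 CPM in iCEC, 1.44, 0.915 and 0.730 CPM in pCEC and 4.04, 1.85 and 3.65 CPM in pNCC. It fell 14.4-fold in iCEC (-3.85 ± 0.88, adjusted p = 0.0203) and 2.85-fold in pCEC (-1.51 ± 0.43, adjusted p = 0.0184). The call of Fgf9 in iCEC was lost on leaving out pNCC 1 (adjusted p = 0.077) or else pNCC 2 (0.0557) or pNCC 3 (0.0735), and its value was -5.20 without iCEC 1. In pCEC it was lost on leaving out pNCC 1 (0.0621), pNCC 3 (0.0545), pCEC 2 (0.0538) or pCEC 3 (0.0584), with all 9 libraries in one fit (0.117) and with the polyA library of pCEC alone (0.18).

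Fgf18, a ligand of bone and lung, was at 0.0417, 0 and 0.0893 CPM in iCEC, 0.1496, 1.86 and 0.913 CPM in pCEC and 2.11, 0.674 and 0.343 CPM in pNCC. In pCEC it overlapped with pNCC (log2 fold change 0.07 ± 0.94, SE, adjusted p = 0.956 by edgeR), and its value was -2.72 with the polyA library of pCEC alone. In iCEC it fell 22.9-fold (-4.52 ± 1.10, adjusted p = 0.0252) on 5 counts, a call lost on leaving out pNCC 1 (-3.52, adjusted p = 0.0905) or else pNCC 2 (0.0717), iCEC 1 (0.0767) or iCEC 2 (0.0521). The value was -5.24 without iCEC 3.

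Of the hormone-like ligands, which travel in blood and need Klotho co-receptors, Fgf21 was at 0.0417, 0.327 and 0.774 CPM in iCEC, 0.120, 1.39 and 0.292 CPM in pCEC and 4.82, 2.99 and 1.71 CPM in pNCC. All libraries of both other groups lay below pNCC, and the differences missed the threshold narrowly in iCEC (log2 fold change -3.12 ± 0.96, SE, adjusted p = 0.052 by edgeR) and in pCEC (-2.23 ± 0.85, adjusted p = 0.0537). The DESeq2 Wald test called both (adjusted p = 0.0021 and 0.0146). The call of Fgf21 was gained in iCEC without iCEC 1 (0.0467) or iCEC 3 (0.0227), and in pCEC without pNCC 3 (0.0494) or pCEC 2 (-3.77, 0.00514) or, on the spread of pNCC, with the polyA library of pCEC alone (-4.64, 0.0112). Fgf23, the phosphate hormone of bone, had 158, 58 and 2 counts in pNCC, 6 in iCEC and none in pCEC, where it was at least 23.6-fold lower at the floor of 3 counts per library, and it was too uneven to enter the test. Fgf15 was seen only in iCEC 3, with 10 counts. The co-receptors Kl and Klb were scarce, averaging 0.0777 and 0.134 CPM in iCEC, 0 and 0.234 CPM in pCEC and 0.0381 and 0.0593 CPM in pNCC.

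The FGF homologous factors Fgf11 to Fgf14 stay inside the cell and act on sodium channels rather than on FGF receptors. Fgf13 was at 0.646, 0.163 and 0.0595 CPM in iCEC, 0.0598, 0.0555 and 0.146 CPM in pCEC and 4.91, 5.51 and 4.28 CPM in pNCC, above every library of both other groups. It fell 15.9-fold in iCEC (log2 fold change -3.99 ± 0.90, SE, adjusted p = 0.0195 by edgeR) and 51.1-fold in pCEC (-5.67 ± 0.46, adjusted p = 4.63e-05). The call in iCEC was lost on leaving out pNCC 1 (adjusted p = 0.0695) or else pNCC 2 (0.0745), pNCC 3 (0.0651) or iCEC 2 (0.0578), and the value was -5.36 without iCEC 1. Fgf14 was at 0.0834, 0 and 0 CPM in iCEC, 0.688, 0.832 and 0.073 CPM in pCEC and 3.05, 1.32 and 0.771 CPM in pNCC. It fell in iCEC (-5.59 ± 1.22, adjusted p = 0.0176) on 4 counts, a call lost on leaving out pNCC 1 (-4.93, 0.0721) or pNCC 2 (0.0645). Without iCEC 1 no count was left in iCEC, so that no fold can be given, and Fgf14 did not pass in pCEC (-1.53 ± 0.81, adjusted p = 0.137). Fgf11, in contrast, was at 6.50, 6.70 and 1.90 CPM in iCEC, 2.12, 2.36 and 1.97 CPM in pCEC and 2.77, 2.14 and 1.03 CPM in pNCC. It passed in no comparison with all libraries, and without iCEC 3 it was higher in iCEC than in pNCC (1.82, adjusted p = 0.0237) and than in pCEC (1.59, adjusted p = 0.0211). Fgf12 had 6 counts in iCEC, 2 in pCEC and 56 in pNCC, and as a ratio of summed counts it was 26.8-fold lower in pCEC (95% counting interval 7.07 to 227, which covers counting error only).

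The feedback and response genes did not move as a block. Of 9 tested members, none rose, 4 fell and 5 did not pass in iCEC against pNCC, the median log2 fold change being -1.02. Of all genes tested there, 16.1% were called upward and 15.1% downward. In pCEC against pNCC, 3 rose, 2 fell and 4 did not pass, with a median of 0.02, where 30.3% of all genes were called upward and 32.2% downward. The count of none in iCEC is by edgeR and also by the DESeq2 Wald test, with Dusp6 alone at an unadjusted p under 0.05 upward (0.0434 by edgeR). Spry2, a Sprouty inhibitor of the RAS-ERK cascade, was at 9.67, 20.1 and 10.5 CPM in iCEC, 23.04, 23.5 and 23.5 CPM in pCEC and 49.7, 57.7 and 80.9 CPM in pNCC. Every iCEC library lay below every pCEC library, and these in turn below every pNCC library. Spry2 fell 4.56-fold in iCEC (-2.19 ± 0.42, SE, adjusted p = 0.0121 by edgeR) and 2.47-fold in pCEC (-1.31 ± 0.21, adjusted p = 0.00122), under every alternative run. Between iCEC and pCEC the difference of -0.90 ± 0.36 did not pass (adjusted p = 0.128), and it passed without iCEC 2 (-1.35, adjusted p = 0.0167).

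Spry4, the Sprouty member known as a close readout of FGF signalling in embryos, was nearly lost in iCEC, at 0.292, 0 and 0 CPM, while it was at 0.838, 12.3 and 4.38 CPM in pCEC and 12.4, 16.7 and 26.9 CPM in pNCC. Its fall of 168-fold in iCEC (log2 fold change -7.39 ± 1.40, SE, adjusted p = 0.0114 by edgeR) rests on 14 counts, all in iCEC 1, and without that library no count was left in iCEC, so that no fold can be given. The call was lost without pNCC 3 (-7.04, adjusted p = 0.0533). In pCEC the difference from pNCC did not pass (-1.54 ± 0.82, adjusted p = 0.144), and it passed without pCEC 2 (-2.65, adjusted p = 0.0296) and, on the spread of pNCC, with the polyA library alone (-4.45, adjusted p = 0.00536). Between iCEC and pCEC it did not pass by edgeR (-5.90 ± 1.76, adjusted p = 0.0606), and it passed by the DESeq2 Wald test (0.000382), with all 9 libraries in one fit (0.0177) and without iCEC 1 (0.0498, on no count in iCEC). The libraries labelled total RNA, pCEC 2 and pCEC 3, had the most Spry4 of their group. They also held more fibroblast and keratocyte marker transcript, at a summed 9700 and 5620 CPM against 1040 CPM in pCEC 1. Some early response genes of ERK signalling differed as well, with Fos at 43.0, 2778 and 1016 CPM and Egr1 at 11.1, 1875 and 571 CPM in pCEC 1, 2 and 3. Others such as Dusp5, Errfi1 and Phlda1 were lowest in pCEC 2. RNA type, the fibroblast and keratocyte markers and Fos and Egr1 cannot be told apart in the pCEC libraries, and their part in Spry4 was not tested.

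Spry1, the Sprouty member known from kidney budding, was at 5.98, 4.82 and 28.2 CPM in iCEC, 58.4, 72.0 and 71.8 CPM in pCEC and 43.4, 52.9 and 60.6 CPM in pNCC. The iCEC libraries lay below all others, with iCEC 3 nearest to them, while pCEC and pNCC overlapped. Spry1 was 4.33-fold lower in iCEC than in pNCC (log2 fold change -2.11 ± 0.64, SE, adjusted p = 0.0497 by edgeR), 1.41-fold higher in pCEC than in pNCC (0.50 ± 0.18, adjusted p = 0.0444) and 5.94-fold lower in iCEC than in pCEC (-2.57 ± 0.67, adjusted p = 0.0414). All 3 calls were close to the threshold. The first was lost on leaving out pNCC 1 (adjusted p = 0.107) or else pNCC 2 (0.126), pNCC 3 (0.138), iCEC 1 (0.115) or iCEC 2 (0.097), with DESeq2 size factors (0.0504), and under both other filters on low counts (0.0795 and 0.0501). The second was lost on leaving out pNCC 1 (0.139), pNCC 2 (0.126), pCEC 2 (0.109) or pCEC 3 (0.129), with all 9 libraries in one fit (0.455) and with the polyA library of pCEC alone (0.526). The third was lost without iCEC 1 (0.0968), iCEC 2 (0.0716), pCEC 1 (0.0936), pCEC 2 (0.123) or pCEC 3 (0.12) and without a filter (0.098). Without iCEC 3 the fall in iCEC was larger, at -3.21 against pNCC and -3.68 against pCEC. Exons of Spry1 share 24.4% of their bases with Gm42922 on the opposite strand, which had at most 0.235 CPM in any library.

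Etv5, an ETS factor switched on by ERK signalling, was at 5.59, 3.597 and 8.72 CPM in iCEC, 15.7, 22.99 and 19.6 CPM in pCEC and 15.6, 20.6 and 23.04 CPM in pNCC. The pCEC and pNCC libraries covered the same range and every iCEC library lay below it. Etv5 fell 3.41-fold in iCEC against pNCC (log2 fold change -1.77 ± 0.34, SE, adjusted p = 0.0111 by edgeR) and 3.64-fold against pCEC (-1.86 ± 0.36, adjusted p = 0.0166). The first call was lost without pNCC 2 (adjusted p = 0.0544) or pNCC 3 (0.0551), and the second without iCEC 1 (0.0503), pCEC 2 (0.0811) or pCEC 3 (0.0757). Etv4, its close relative, did not follow. It was at 7.76, 6.51 and 3.27 CPM in iCEC, 7.87, 6.05 and 6.57 CPM in pCEC and 4.41, 11.7 and 8.62 CPM in pNCC, with overlapping groups and adjusted p-values of 0.571, 0.737 and 0.649 in the 3 comparisons.

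Dusp6, the phosphatase that inactivates ERK, was at 38.7, 74.9 and 52.5 CPM in iCEC, 89.2, 71.1 and 69.7 CPM in pCEC and 24.6, 34.5 and 35.5 CPM in pNCC. It was thus higher, not lower, in every library of iCEC and pCEC than in any of pNCC. Dusp6 was 2.65-fold higher in pCEC (log2 fold change 1.40 ± 0.18 with its SE, adjusted p = 0.000393 by edgeR), under every alternative run. In iCEC the difference of 0.84 ± 0.33 did not pass (adjusted p = 0.105), nor did that between iCEC and pCEC (-0.57 ± 0.28, adjusted p = 0.205), which passed without iCEC 2 (-0.90, adjusted p = 0.0344).

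The Spred proteins hold back RAF activation together with neurofibromin. Spred3 was at 12.8, 10.0 and 1.99 CPM in iCEC, 0.898, 2.14 and 0.730 CPM in pCEC and 15.1, 18.3 and 19.4 CPM in pNCC. It fell 12.7-fold in pCEC (log2 fold change -3.67 ± 0.42 with its SE, adjusted p = 0.00025 by edgeR; -4.28 without pCEC 2 and -4.26 with the polyA library alone), and did not pass in iCEC against pNCC (-1.02 ± 0.69, adjusted p = 0.305). Between iCEC and pCEC it stood at 2.63 ± 0.84 (adjusted p = 0.072), and passed without iCEC 3 (3.14, adjusted p = 0.00772), by the DESeq2 Wald test (0.00557) and with all 9 libraries in one fit (0.0295). Spred1 was at 47.4, 57.0 and 109.6 CPM in iCEC, 136.8, 115 and 112 CPM in pCEC and 101, 114 and 99.98 CPM in pNCC. Its rise of 1.26-fold in pCEC was called (0.33 ± 0.11, adjusted p = 0.0325) although the groups overlap. That call was lost on leaving out pNCC 1 (0.107), pNCC 2 (0.0683) or pNCC 3 (0.0969), without a filter on low counts (0.0693), with all 9 libraries in one fit (0.235) and with the polyA library of pCEC alone (0.0533). In iCEC it did not pass against pNCC (-0.60 ± 0.27, adjusted p = 0.141), and passed without iCEC 3 (-0.93, adjusted p = 0.00622). Spred2 averaged 53.2 ± 8.25 CPM in iCEC, 49.0 ± 1.84 CPM in pCEC and 52.9 ± 3.88 CPM in pNCC, with log2 fold changes of 0.03 ± 0.22, 0.02 ± 0.11 and 0.01 ± 0.20 (SE) in the 3 comparisons, whose signs turned under other settings.

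**Figure D4:**
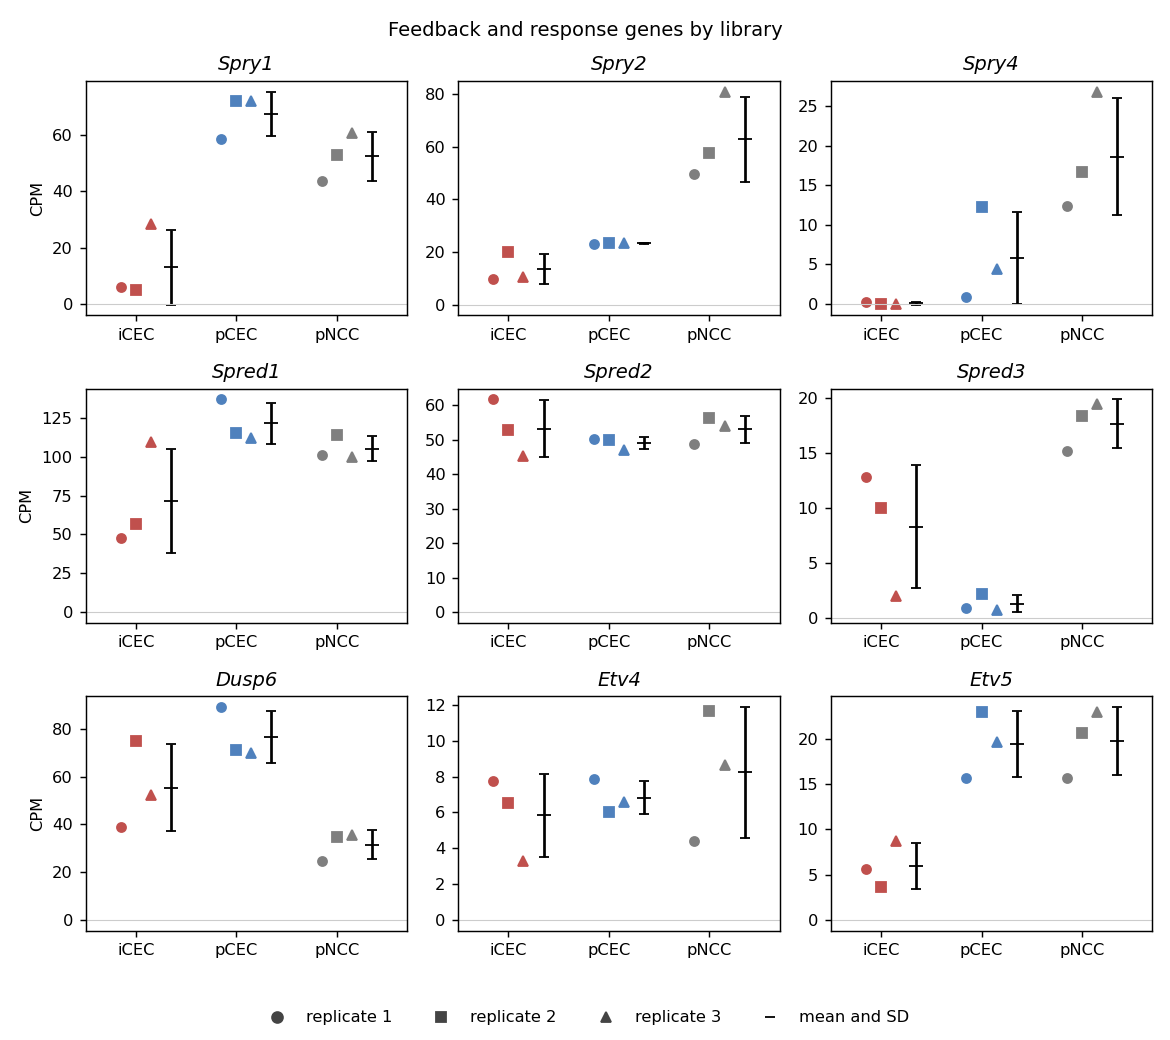
Points give CPM (linear axes, a different range in each panel) of the 9 feedback and response genes in each library of iCEC, pCEC and pNCC, with the mean and SD of 3 libraries beside them. Spry4 and Etv5 are lowest in iCEC, Spry2 is highest in pNCC at 49.7 to 80.9 CPM, Dusp6 is lowest in pNCC at 24.6 to 35.5 CPM, and Spred2 overlaps throughout.

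Counted over the whole set, 23 of the 35 genes passed the filter on low counts for iCEC against pNCC, 25 for pCEC against pNCC and 20 for iCEC against pCEC. In iCEC against pNCC, 3 were higher, 11 lower and 9 did not pass, where 31.3% of all 16293 genes tested were called, 16.1% upward and 15.1% downward. The median log2 fold change of the tested FGF genes was -2.19, against 0.05 over all genes. This count and median lean downward in part through the filter, since Fgf5, Fgf14 and Fgf18 met it through pNCC alone. In pCEC against pNCC, 6 were higher, 9 lower and 10 did not pass, where 62.5% of 16608 genes were called, 30.3% upward and 32.2% downward, so that the share of FGF genes called was near that of all genes. In iCEC against pCEC, none was higher, 5 were lower (Fgfr2, Fgfr3, Fgfr4, Spry1 and Etv5) and 15 did not pass, where 20.4% of 16278 genes were called, 10.5% upward and 9.92% downward. Beside the count of none higher, Fgf1 and Spred3 were higher in iCEC at an unadjusted p under 0.05 by edgeR, and the DESeq2 Wald test called the same 2 higher. In either direction, 11 of the 20 FGF genes had an unadjusted p under 0.05, the rest of them lower in iCEC, against 5690 of all 16278 genes. Both comparisons with pNCC share its 3 libraries, so their directions are not independent of each other. Without pNCC 1, pNCC 2 or pNCC 3, 8, 7 and 9 FGF genes were called in iCEC against pNCC. Without pNCC 1 or pNCC 2, 3 were higher in pCEC than in pNCC, and 4 without pCEC 2. In iCEC against pCEC, 9 were called without iCEC 3, 3 without pCEC 1, and 2 without pCEC 2 or pCEC 3.

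**Figure D5:**
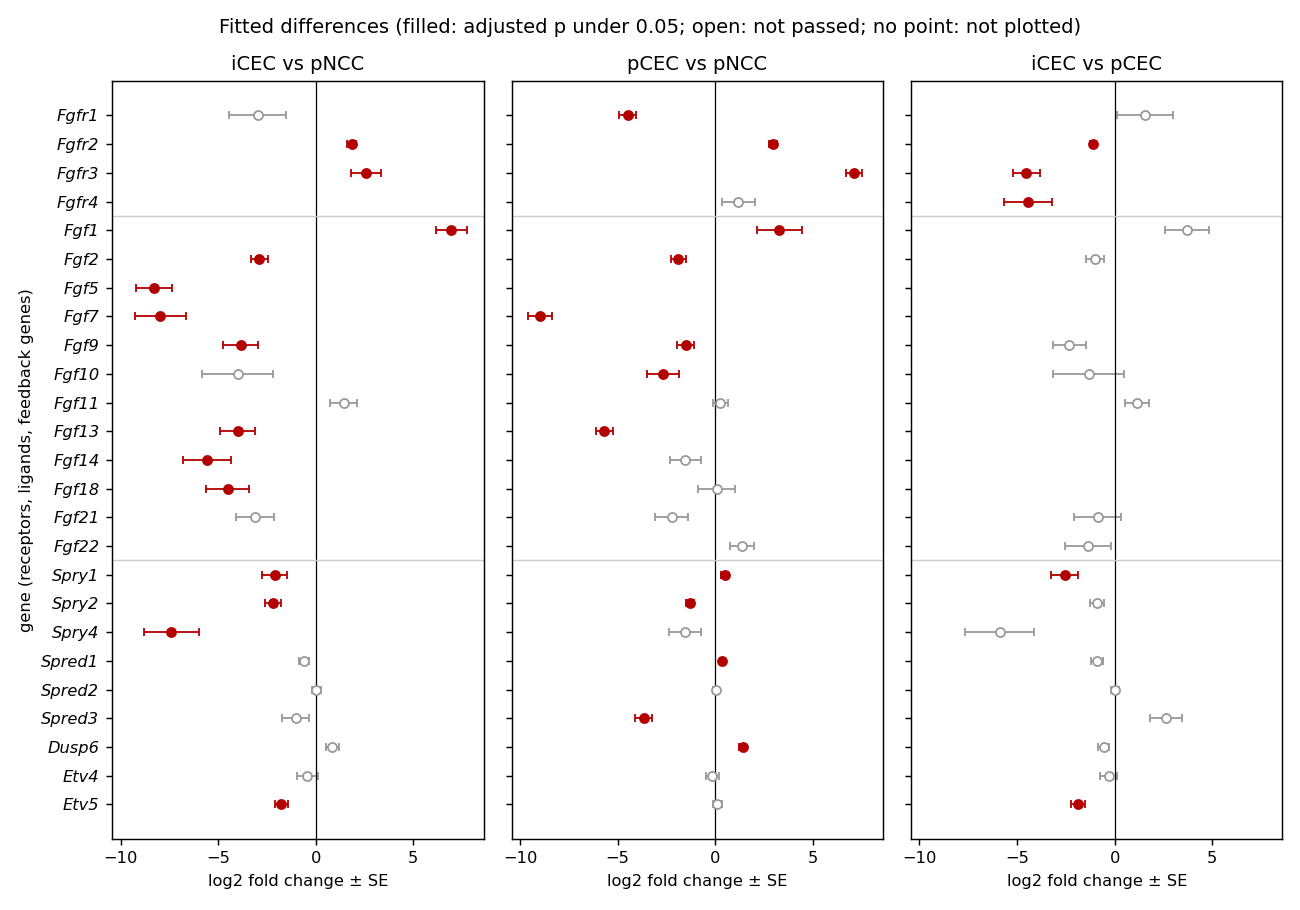
Fitted log2 fold changes with their SE are drawn for each tested FGF gene in the comparisons of iCEC with pNCC, pCEC with pNCC and iCEC with pCEC, filled where the adjusted p was under 0.05. Fgf5 in pCEC has no point because it was at 0 there, and the ligand block lies mostly left of 0 in the comparisons with pNCC, with Fgf1 farthest to the right among them, at 6.93 in iCEC.

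Libraries within a group also differed across the set. Among the 23 genes with at least 10 counts in pCEC, 14 were highest in pCEC 2, 6 in pCEC 1 and 3 in pCEC 3. Those highest in pCEC 2 included Spry4, Fgf10, Fgf18, Fgf21, Fgfr1 and Fgfr4, but also Fgfr2 and Etv5, while Fgf7 was highest in pCEC 3. The matching shares over all genes were not computed, so these counts cannot be read as a trait of the FGF genes. The same holds for the counts in iCEC below. The library pCEC 2 had the highest summed level of fibroblast and keratocyte markers of its group, at 9700 CPM, and of vessel endothelium markers, at 18.8 CPM against 4.13 CPM in pCEC 1 and 14.4 CPM in pCEC 3. The part of these markers in the FGF gene levels was not tested. Among the 22 genes with at least 10 counts in iCEC, 9 were highest in iCEC 1, among them Fgf7, Fgf10, Fgf9, Fgf13 and Spry4, and 9 in iCEC 3, among them Fgfr1, Fgf1, Spry1 and Spred1.

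Partners of the ligands outside the cell were described from a list of 19 genes, of which 18 were in the table. Of 16 tested co-receptors and secreted modulators, 3 were higher, 5 lower and 8 did not pass in iCEC against pNCC (median log2 fold change -0.70), and 4 were higher, 10 lower and 2 did not pass in pCEC against pNCC (median -2.42). Between iCEC and pCEC, 4 were higher and 12 did not pass (median 0.98), where 31.3%, 62.5% and 20.4% of all genes tested were called in the 3 comparisons. The syndecan Sdc4, a heparan sulfate carrier of the cell surface, averaged 450.1 ± 113 CPM in iCEC and 65.5 ± 15.7 CPM in pNCC (log2 fold change 2.80, adjusted p = 0.002 by edgeR), while Sdc3 averaged 27.3 ± 9.68 CPM in iCEC and 256 ± 17.8 CPM in pNCC (-3.20, adjusted p = 0.00201), so that members of one family moved in opposite directions. Perlecan (Hspg2), the heparan sulfate carrier of basement membranes, averaged 130.1 ± 41.7 CPM in iCEC and 1244 ± 56.7 CPM in pNCC (-3.21, adjusted p = 0.00212). Fgfbp1, a secreted carrier that frees FGFs from the matrix, averaged 284 ± 37.6 CPM in pCEC and 0.509 ± 0.16 CPM in pNCC (9.24, adjusted p = 1.37e-06). It was also higher in iCEC than in pNCC, at 192.5, 456.3 and 26.9 CPM (8.88, adjusted p = 0.00525 by edgeR). Flrt2, a membrane protein that binds FGF receptors, averaged 111 ± 43.2 CPM in iCEC, 4.28 ± 1.24 CPM in pCEC and 332 ± 101 CPM in pNCC, a difference of 4.56 on the log2 scale between iCEC and pCEC (adjusted p = 0.00162).

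Enzymes that build and trim heparan sulfate moved in both directions. Of 15 tested, 1 was higher, 6 lower and 8 did not pass in iCEC against pNCC (median log2 fold change -0.50), and 3 were higher, 10 lower and 2 did not pass in pCEC against pNCC (median -1.06). Between iCEC and pCEC, 4 were higher, 2 lower and 9 did not pass (median 0.42), beside the same shares of 31.3%, 62.5% and 20.4% over all genes. The sulfotransferase Hs6st2 averaged 21.3 ± 8.61 CPM in iCEC, 0.349 ± 0.323 CPM in pCEC and 116 ± 23.1 CPM in pNCC, and fell in both groups against pNCC (adjusted p = 0.00682 and 1.91e-05 by edgeR). The sulfatase Sulf2, which removes sulfates that FGFs bind, averaged 235 ± 158 CPM in iCEC, 4.98 ± 1.9 CPM in pCEC and 318 ± 101.5 CPM in pNCC. Its log2 fold change between iCEC and pCEC was 5.38 (adjusted p = 0.00553 by edgeR). Against pNCC it was lower in pCEC (-5.85, adjusted p = 2.8e-05) and did not pass in iCEC (-0.495, adjusted p = 0.504).

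For the genes of the cascade below the receptors, the shares called lay beside 31.3% (iCEC against pNCC), 62.5% (pCEC against pNCC) and 20.4% (iCEC against pCEC) of all genes. Of 23 tested adaptors and RAS-ERK genes, 3 were higher, 2 lower and 18 did not pass in iCEC against pNCC (median log2 fold change -0.07), 7 were higher, 9 lower and 7 did not pass in pCEC against pNCC (median -0.05), and 1 was higher, 2 lower and 20 did not pass in iCEC against pCEC (median -0.01). The docking protein Gab1 was higher in iCEC, at 98.4 ± 28.8 CPM, and in pCEC, at 86.3 ± 7.75 CPM, against 29.0 ± 5.33 CPM in pNCC (adjusted p = 0.00301 and 6.88e-05 by edgeR). The adaptor Shc1 was lower in iCEC, at 84.9 ± 22.9 CPM, and in pCEC, at 92.4 ± 4.08 CPM, against 231 ± 14.9 CPM in pNCC (adjusted p = 0.0158 and 0.000154).

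Further feedback and early response genes went both ways. Of 19 tested in iCEC against pNCC, 4 were higher, 3 lower and 12 did not pass (median log2 fold change 0.45). Of 20 tested in pCEC against pNCC, 10 were higher, 7 lower and 3 did not pass (median 0.89), and in iCEC against pCEC 4 were higher, 1 lower and 15 did not pass (median 0.13), where 31.3%, 62.5% and 20.4% of all genes were called. The phosphatase Dusp4, which acts on ERK in the nucleus, averaged 88.6 ± 29.0 CPM in iCEC, 0.571 ± 0.295 CPM in pCEC and 30.0 ± 11.4 CPM in pNCC. Its log2 difference between iCEC and pCEC was 7.15 (adjusted p = 0.00187 by edgeR). Most of this was a fall in pCEC, at -5.57 against pNCC, beside 1.59 in iCEC against pNCC. Lrig1, an inhibitor of receptor tyrosine kinases, averaged 25.7 ± 6.83 CPM in iCEC and 286 ± 60.9 CPM in pCEC (-3.62, adjusted p = 0.00153), and 163 ± 12.0 CPM in pNCC. Dusp5, another nuclear ERK phosphatase, averaged 88.3 ± 19.0 CPM in pCEC and 7.84 ± 2.55 CPM in pNCC (3.64, adjusted p = 5.09e-05), and the ETS factor Etv1 0.615 ± 0.095 CPM in pCEC and 13.8 ± 1.98 CPM in pNCC (-4.35, adjusted p = 1.09e-05). Cyclin D1 (Ccnd1), the driver of the first phase of the cell cycle, was higher in pCEC, at 348 ± 19.1 CPM, than in pNCC, at 102 ± 19.8 CPM (adjusted p = 4.27e-05). Ccnd1 was also higher in iCEC than in pNCC, at 391.5, 242.3 and 1984 CPM (adjusted p = 0.0283 by edgeR). Scn8a, a sodium channel of neurons, was at 0.127 ± 0.154 CPM in iCEC, 0.153 ± 0.153 CPM in pCEC and 1.59 ± 0.262 CPM in pNCC, lower in both (adjusted p = 0.0345 and 0.00395).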

How the data were processed

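RNA was sequenced in 9 mouse libraries with paired reads of 150 bases, per the labels' protocols. The authors deposited 1 table of raw counts, with a row for each gene symbol. Build mm10 and edgeR are named in the submitters' processing notes, while the aligner, the counter, its strand setting and the annotation are not given in the sources used here. Between 74.6% and 77.7% of counts from 2 to 49 were even, so that reads of a pair may have been counted singly and counting intervals are then too narrow. Counts were tested with edgeR 4.0.16 (quasi-likelihood, TMM scaling, filterByExpr with a minimum count of 10, Benjamini-Hochberg adjustment over all genes tested, threshold 0.05), in a separate fit for each pair of groups, and the code was tested on simulated data. DESeq2 1.42.0, other filters, a fit of all 9 libraries, a replicate block, leaving out each library and pCEC as its polyA library alone were the alternatives. Exon lengths, positions and overlaps came from GENCODE M21, in which all 35 genes matched. Every gene of the set was eligible to be named, and of related lists at most 3 called genes per comparison with the smallest adjusted p. The members and lists were chosen with earlier results of these data known.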

Additional observations from a re-analysis of the deposited data

How the results depend on the processing

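Of the log2 fold changes recomputed under the alternatives, 699 kept their direction and side of the threshold, 86 lost a call, 32 gained one and 30 changed sign, none of them of a called gene. The number of FGF genes called between iCEC and pCEC, 5, was 10 by the DESeq2 Wald test, 12 with all 9 libraries in one fit, 3 with the replicate block, 0 with the polyA library of pCEC alone (3 of 23 at an unadjusted p under 0.05) and 2 to 9 without single libraries. Between iCEC and pNCC, 14 were called, and 7 to 17 without single libraries. Over all genes, 3327 were called between iCEC and pCEC (block 1295, polyA library 0, with 2529 at an unadjusted p under 0.05, single libraries left out 1131 to 4974) and 5093 between iCEC and pNCC (block 2864, single libraries left out 2322 to 7684). The total counts between pCEC and pNCC stayed within 1.5 times under every alternative run, while the 6 FGF genes higher in pCEC were 3 without pNCC 1 or pNCC 2 and 4 without a filter, in one fit, with the block, without pCEC 2 and with the polyA library. No pairing by replicate number was seen: deviations of same-numbered libraries correlated at -0.18 to 0.07 and those of other pairs at -0.16 to 0.18. Whether same-numbered libraries share an origin cannot be read from these values. With the block, calls ended for Fgfr3 (adjusted p = 0.0829 by edgeR) and Fgf18 (0.0763) between iCEC and pNCC, for Fgf1 (0.205), Fgf10 (0.108) and Spred1 (0.0664) between pCEC and pNCC, and for Fgfr4 (0.0797) and Etv5 (0.063) between iCEC and pCEC. Values that changed sign between iCEC and pCEC were Etv4 (-0.57 to 0.0348 without single libraries), Fgf21 (1.58 with the polyA library, -1.74 to 0.69), Fgfr1 (-0.61 with the block, -2.02 to 2.13) and Spred2 (-0.0190 with DESeq2 size factors, -0.0189 by DESeq2, -0.00633 with the stricter filter of 1 CPM, -0.0474 in one fit, -0.0126 with the block, -0.12 to 0.19). Between pCEC and pNCC they were Etv4 (-0.46 to 0.15), Etv5 (-0.30 with the polyA library, -0.0578 to 0.32), Fgf11 (-0.0439 to 0.56), Fgf18 (-2.72 with the polyA library, -0.76 to 1.07), Fgfr4 (-0.55 with the polyA library) and Spred2 (-0.0459 with the polyA library, -0.0608 to 0.0913). Between iCEC and pNCC it was Spred2 (-0.01995 with DESeq2 size factors, -0.0199 by DESeq2, -0.003288 in one fit, -0.11 to 0.18). Where a setting is not its own cause (fewer libraries), the cause was not tested. Depth limits genes near the floor of 3 counts.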
